A study of Drosophila melanogaster with 18 samples.

Results

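The 10 genes described here are goe, Vdup1, SP1173, CBP, CG10359, CG31769, Qsox2, ldd, C901 and Sp212. They were picked from 17609 counted genes as genes outside the cuticle families with much higher read counts in S2 cells expressing Grainy head (Grh) than in copper-treated wild type cells. That difference is therefore given as a description, without a test. Their levels in the libraries outside that comparison were tested, although the members were chosen with earlier results of these data known. Of the 10, 8 had their highest level in the induced Grh line, and SP1173 and CBP were higher still in cells expressing Twist (Twi). For CBP the difference that chose it was a ratio of 2.25, and wild type cells at the matching copper number already held 26.5 CPM (reads per gene scaled to one common library depth) of its transcripts.

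Grh is the founding member of the Grainy head family of transcription factors, which regulate genes of the epidermis, the cuticle, cell adhesion and wound repair from flies to mammals. It is studied as a pioneer factor, a protein that can bind its sites in closed chromatin. S2 cells are an embryonic Drosophila line with blood-cell traits and do not normally express it. The members known for a function belong to several protein classes. The goe product (also named Nepl2) is a neprilysin-like protein of the M13 metallopeptidase family and acts in the germline to limit EGF receptor signalling. Vdup1 encodes an arrestin-domain protein related to the mammalian thioredoxin-interacting protein. CBP encodes an EF-hand calcium-binding protein, Qsox2 a sulfhydryl oxidase of the kind that forms disulfide bonds in secreted proteins, Sp212 a serine protease, and ldd a transporter of the ABC superfamily.

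The study sequenced polyA RNA from S2 cells harvested 48 h after induction, in 18 libraries that form 9 groups of 2. Wild type cells (genotype S2-WT) were untreated or received CuSO4 at 40, 100 or 1000 µM. The lines S2-Zld, S2-Grh and S2-Twi carry a copper-inducible gene for Zelda (Zld), Grh or Twi. The Zld and Grh lines were taken uninduced and induced, with printed doses of 1000 mM and 100 mM, and the Twi line was taken induced at 40 µM. These printed numbers equal those of the wild type controls but not their unit, and which unit is right cannot be settled from the labels. Whether a line is 1 clone and whether replicates are separate cultures is not given in the sources used here, so the p-values reflect only how far these libraries vary, which may be technical.

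Libraries held 10459648 to 28575923 counted reads, and 3 counts equal 0.105 to 0.287 CPM in 1 library. The 9 hemocyte and S2 markers summed to between 1289 and 5757 CPM in every library, with none at 0 counts in any group. Single markers of blood cells differed between the Grh line and wild type, not all in the same direction. Hml had 36.9 ± 2.78 CPM in the uninduced line against 170.0 ± 19.5 in untreated wild type, eater 15.1 ± 0.0672 against 42.8 ± 3.87 and Sr-CI 18.1 ± 3.69 against 54.0 ± 4.29. NimC1 was similar there, at 0.832 ± 0.0326 against 0.893 ± 0.113 CPM. In the induced line Hml had 20.7 ± 2.23 CPM against 77.3 ± 4.17 in wild type at 100 µM, and eater 6.38 ± 0.703 against 17.8 ± 1.19. Col4a1 was lower too, at 90.6 ± 9.99 against 447 ± 6.99 CPM. Sr-CI was higher, at 7.64 ± 2.13 against 2.36 ± 0.0369, as was Pxn, at 2078 ± 45.1 against 755 ± 20.6. Uninduced, Pxn had 1910 ± 228 CPM against 2829 ± 8.57 in untreated wild type. Among the wild type groups alone, mean Hml ran from 12.4 CPM at 40 µM to 269 CPM at 1000 µM. Levels of srp, a GATA factor of blood cells, were at a mean of 412.5 CPM in the uninduced line against 476.9 CPM in untreated wild type, and of 355 against 392 CPM in the induced line and wild type at 100 µM. The 4 tracheal and epidermal markers, which include crb and Fas3, summed to 72.0 to 81.5 CPM in the induced Grh line. Wild type at 100 µM had 64.2 to 69.7 CPM. The uninduced Grh line had 24.5 to 27.7 CPM against 54.1 to 54.4 CPM in untreated wild type. The highest sum, 106.7 to 122.1 CPM, was in wild type at 40 µM. Most of the sum was crb, and single markers moved in opposite directions. Uninduced, crb was lower than in untreated wild type (22.1 ± 1.18 against 53.05 ± 0.53 CPM) and Fas3 higher (2.58 ± 0.388 against 0.604 ± 0.444). Induced, crb had 57.9 ± 2.18 CPM against 65.75 ± 4.35 at 100 µM, and Fas3 17.97 ± 3.53 against 0.951 ± 0.339. The part of these markers in the members' levels was not tested. The fat body marker Lsp2 had no counts in 5 of the 9 groups. Levels of grh were 1014 and 985 CPM in the induced Grh libraries and 44.5 and 36.2 CPM in the uninduced ones, and between 0.119 and 2.01 CPM in the other libraries. The uninduced Grh line thus already held 4.04% of the induced level. Of the exonic bases of grh, 19.1% also lie in other annotated elements, and counts do not separate the transgene from the endogenous gene. Some other genes were uneven between replicates. Levels of zld were 1.51 and 15.99 CPM in untreated wild type, 0.688 and 10.7 CPM in induced Grh, and 10.1 and 14.5 CPM in uninduced Grh libraries. Wild type at 40 µM had 0.105 and 0.297 CPM. In the induced Grh libraries Mhc had 0.138 and 2.13 CPM. The source of this unevenness and its part in low-count differences were not tested. The 6 metallothionein genes, which bind excess copper, summed to 2005 and 2054 CPM in the induced Grh libraries, against 769 and 902 CPM in the 100 µM wild type libraries, with MtnC at 0 counts in both groups. These sums did not overlap, and their part in the members' levels was not tested.

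In the genome (dm6) the members lie on 4 chromosome arms. On the X chromosome, goe (FBgn0027528) spans 16727304 to 16751910 on the minus strand, CBP (FBgn0026144) 7337352 to 7342731 on the plus strand, ldd (FBgn0083956) 21123634 to 21140951 on the plus strand and C901 (FBgn0021742) 10964032 to 10967134 on the minus strand. On 3L lie Vdup1 (FBgn0035103, 176306 to 178963, minus strand), SP1173 (FBgn0035710, 6689327 to 6703521, minus strand) and CG10359 (FBgn0035452, 3612192 to 3615244, plus strand). On 3R lie Qsox2 (FBgn0038919, 21913747 to 21915546, plus strand) and Sp212 (FBgn0053329, 14222074 to 14224155, minus strand), and CG31769 (FBgn0051769, 14109597 to 14110739, minus strand) lies on 2L. All 10 are annotated as protein coding. Qsox2 has a single exon, whereas ldd has 15 separate exonic blocks. C901 shares 0.8% of its exonic bases with Myo10A on the opposite strand, and the other 9 members share none with another gene. The span of CBP overlaps that of CG1677 and the span of CG31769 overlaps that of CG46301, each on the opposite strand, and goe overlaps the cuticle protein genes TwdlX, TwdlY, TwdlZ and Twdlalpha.

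In the induced Grh line, both libraries lay above each of the other 16 for 8 of the 10 members, the exceptions being SP1173 and CBP; 6.64% of the 9521 tested genes have this pattern, and since the members were picked in those libraries the share is only a description. Scaled by gene length, CG10359 was the most abundant there at 160.0 ± 5.23 RPKM (reads scaled by gene length and library depth; SD, n = 2). Vdup1 and CG31769 followed at 53.5 ± 0.193 and 53.4 ± 0.792 RPKM, a difference within their spread. Levels of Sp212, CBP, SP1173, Qsox2 and goe were 30.7 ± 0.806, 23.1 ± 0.212, 19.7 ± 1.57, 16.5 ± 0.522 and 15.7 ± 1.10 RPKM. C901 and ldd were the lowest at 4.33 ± 1.18 and 1.56 ± 0.0807 RPKM. The members thus spanned a wide range of induced levels, from the low values of ldd to those of CG10359.

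**Figure D1:**
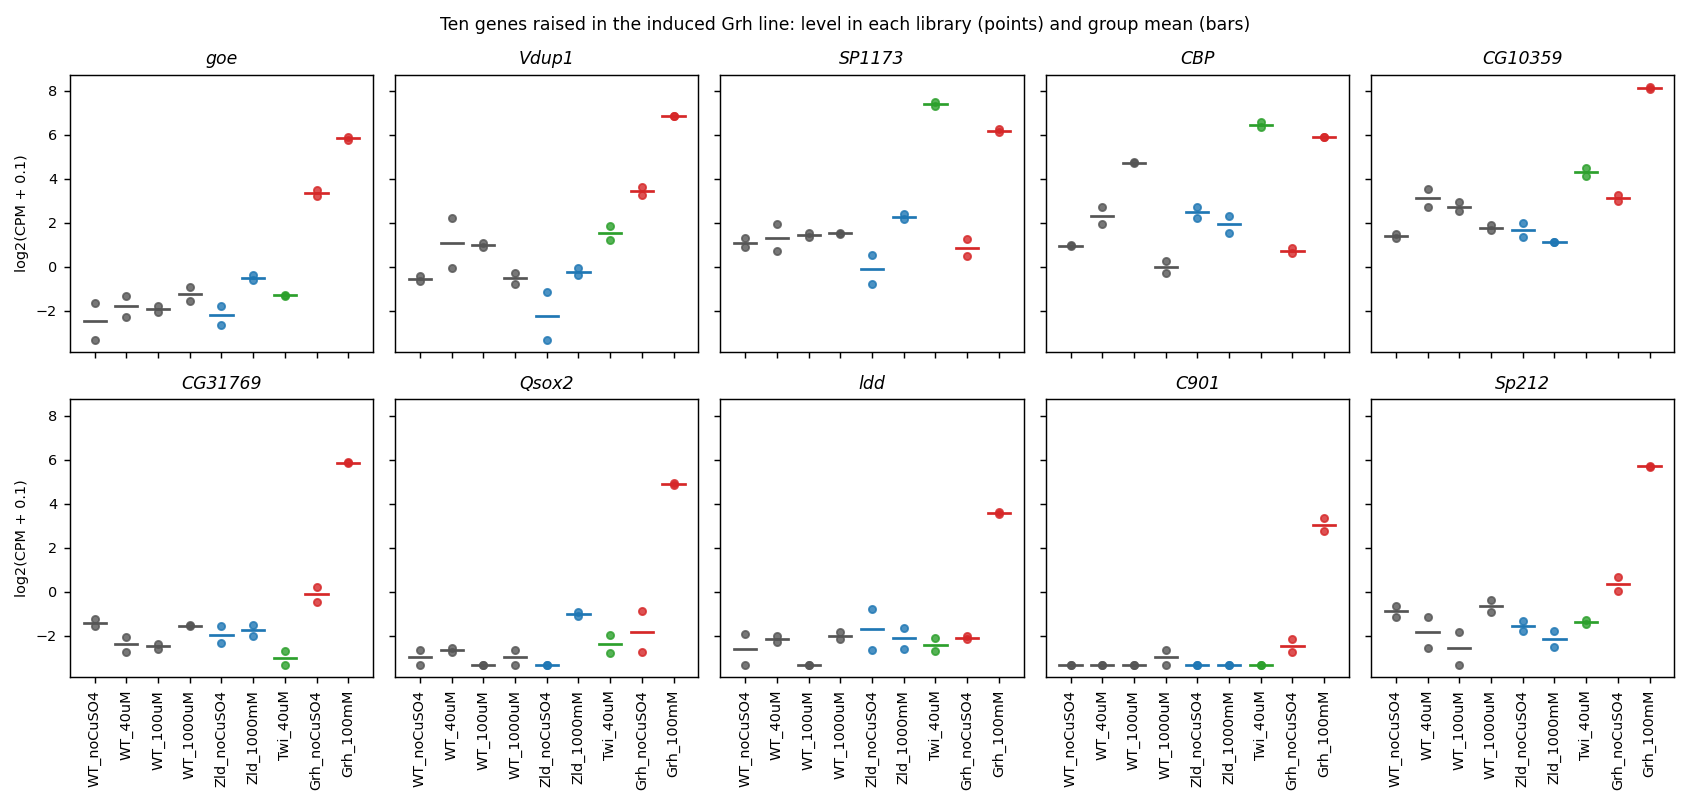
Level of each of the 10 genes in the 18 libraries, as log2(CPM + 0.1) on the vertical axis, with the 9 groups along the horizontal axis. Points are libraries, horizontal bars are means of 2 libraries, and colours mark wild type (grey), Zld (blue), Twi (green) and Grh (red). For 8 genes the induced Grh line is the highest group, while SP1173 and CBP are highest in the Twi line, and goe and Vdup1 are raised in the uninduced Grh line.

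Without copper, 5 of the 10 members were higher in the Grh line than in untreated wild type and none was lower (edgeR, adjusted p under 0.05), where 5.99% of all tested genes were called higher and 6.45% lower. The comparison that chose the members did not hold these libraries. The members were, however, chosen with earlier results of these data known, so their share of calls is not independent of that choice. The 5 are goe, Vdup1, CG10359, CG31769 and Sp212. Several of the blood-cell and epithelial markers above also differed between the same libraries. For 3 of these 5 members, goe, Vdup1 and CG10359, the call held without any single library, whereas the calls of CG31769 and Sp212 did not. All 10 members passed the filter on low counts, but Qsox2, ldd and C901 did so only through the induced Grh libraries that chose them. When filter and fit used the other 16 libraries alone, 7 members were tested and 3 of them called, goe, Vdup1 and CG10359 (adjusted p = 5.39e-07, 0.000896 and 0.000603), while CG31769 and Sp212 were not (adjusted p = 0.0634 and 0.117).

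Levels of goe were 60.6 and 54.9 CPM in the induced Grh libraries, 11.3 and 9.12 CPM in the uninduced ones and 0.194 and 0.137 CPM in wild type at 100 µM. In the 14 libraries outside the Grh line it ran from 0 to 0.662 CPM with a median of 0.229. Both uninduced Grh libraries lay above all 14, and the induced ones lay higher again. Over untreated wild type, where the libraries had 4 and 0 counts, goe rose in the uninduced line by 6.53 ± 0.39 (log2, adjusted p = 6.09e-09). This SE was derived from the test statistic and is smaller than counting error. The 373 against 4 counts gave a ratio of 89.8 (exact binomial interval 34.8 to 331, counting error only). Between induced Grh and wild type at 100 µM the log2 difference was 8.53 ± 0.32. Its uninduced level was 17.6% of the induced one, while that of grh was 4.04%.

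Vdup1 had 114.7 and 115.3 CPM in the induced Grh libraries, 12.2 and 9.60 CPM in the uninduced ones and 0.540 and 0.639 CPM in untreated wild type. Across the 8 wild type libraries it ran from 0.482 to 4.55 CPM, and the highest was replicate 2 at 40 µM. The uninduced Grh line lay above all of these and did not overlap with any group. There Vdup1 rose by 4.30 ± 0.61 on the log2 scale over untreated wild type (adjusted p = 0.000644), and its uninduced level was 9.48% of the induced one.

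CG10359, known only by its annotation number, had 275 and 288 CPM in the induced Grh line, 9.65 and 7.79 CPM in the uninduced line and 2.38 and 2.73 CPM in untreated wild type. It rose by 1.87 ± 0.31 on the log2 scale in the uninduced line (adjusted p = 0.00106). Its uninduced level, 3.09% of the induced one, overlapped with that of wild type at 40 µM, at 6.58 and 11.6 CPM. CG31769 and the serine protease gene Sp212 stayed low without copper. CG31769 had 57.4 and 58.7 CPM in the induced line, 1.06 and 0.618 CPM in the uninduced line and 0.324 and 0.232 CPM in untreated wild type. It rose by 1.63 ± 0.43 in the uninduced line (adjusted p = 0.0194). Sp212 had 52.6 and 50.7 CPM induced, 1.49 and 0.903 CPM uninduced and 0.540 and 0.348 CPM in untreated wild type. It rose by 1.48 ± 0.47 (adjusted p = 0.0484). Each of these differences rests on few reads, 30 against 10 counts for CG31769 and 43 against 16 for Sp212. The ratios were 2.89 (exact binomial interval 1.37 to 6.62) and 2.59 (1.43 to 4.92), with counting error only. The call of Sp212 ended without any 1 of the 4 libraries (log2 change 1.10 to 1.85, adjusted p = 0.0533 to 0.330), with the other size factors (adjusted p = 0.0505) and with a replicate block (adjusted p = 0.0584). That of CG31769 ended without replicate 1 or 2 of untreated wild type (adjusted p = 0.0844 and 0.136) and without replicate 1 of the uninduced Grh line (adjusted p = 0.247).

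Qsox2, ldd and C901 were close to absent outside the induced Grh line. Qsox2 had 29.1 and 30.4 CPM in the induced libraries and no counts in wild type at 100 µM, and was at least 368-fold higher against 3 counts over that group. In the 16 libraries outside the induced line it had 29 counts in all, 8 of them in the uninduced Grh line. Levels of ldd were 12.2 and 11.3 CPM induced, against no counts in wild type at 100 µM, at least 147-fold higher, with 33 counts in the other 16 libraries together. C901 had 9.93 and 6.74 CPM induced, at least 106.9-fold above wild type at 100 µM, and 4 counts in the other 16 libraries, 3 of them in the uninduced Grh line. For Qsox2 the uninduced Grh line had 8 counts against 1 in untreated wild type, a ratio of 7.70 (95% exact binomial interval 1.03 to 342, counting error only). For ldd the counts were 5 against 3, a ratio of 1.61 (0.312 to 10.3). No test of these 3 genes is read for the uninduced Grh line, although they count among the 10 members in each comparison. The call of Qsox2 in the induced Zld line is given below with its limits.

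The uninduced Zld line is a second transgenic line without copper. Against it, the uninduced Grh line was higher for the same 5 members and lower for CBP, where 5.73% of tested genes were called higher and 7.25% lower. Both comparisons share the uninduced Grh libraries. Here goe rose by 6.47 ± 0.43 on the log2 scale (373 against 3 counts, a ratio of 91.5 with a 95% interval of 31.1 to 446, adjusted p = 4.06e-08). Vdup1 rose by 5.61 ± 0.81 (adjusted p = 0.000832) and CG10359 by 1.39 ± 0.31 (adjusted p = 0.0100). CG31769 and Sp212 rose by 2.14 ± 0.52 and 2.18 ± 0.58 (adjusted p = 0.0119 and 0.0194). Without replicate 1 of either line the calls of CG10359, CG31769 and Sp212 ended, with adjusted p between 0.0646 and 0.132. Without replicate 2 of the Zld line that of Sp212 ended (adjusted p = 0.0511), and with only these 4 libraries fitted that of CG31769 did (adjusted p = 0.0780). Over the single libraries left out, 3 to 7 members were called. Between the uninduced Zld line and untreated wild type, 1 member was called higher, CBP, and none lower, where 7.63% of genes were called higher and 6.67% lower. CBP fell by 1.82 on the log2 scale between the uninduced Zld and Grh lines (SE 0.33, adjusted p = 0.00238) and was 1.71 ± 0.32 higher in the uninduced Zld line than in wild type (adjusted p = 0.00282).

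**Figure D2:**
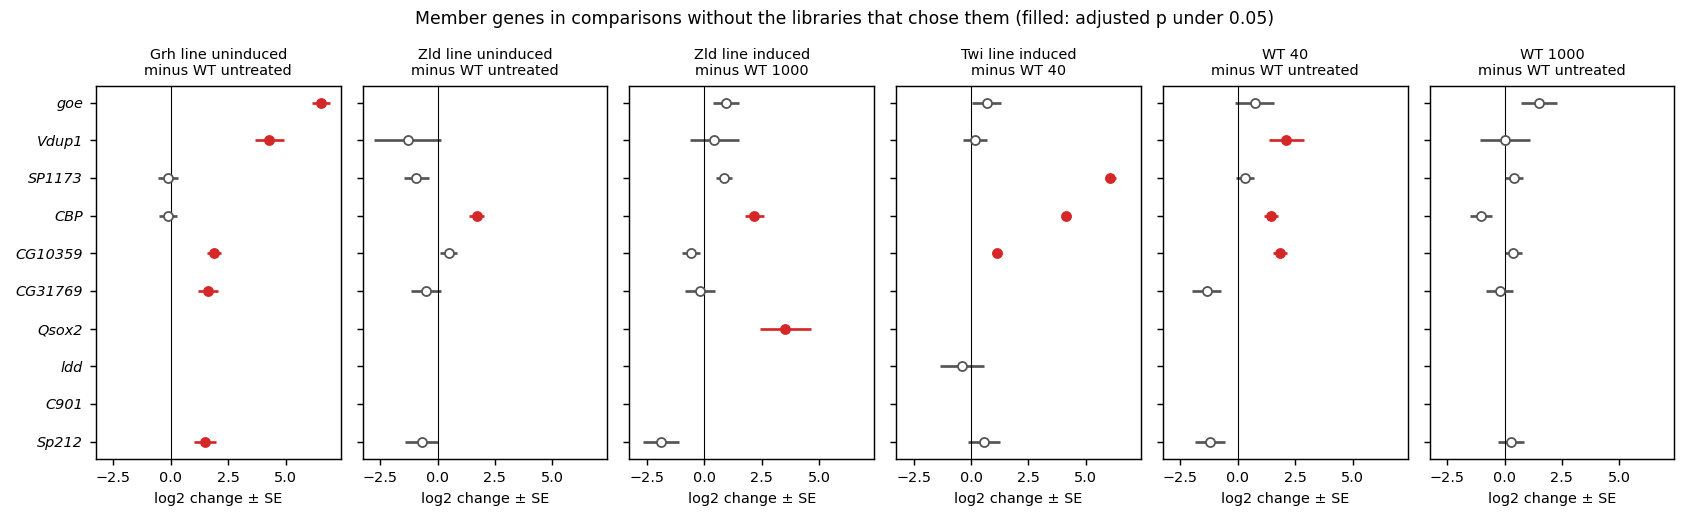
Log2 change with its SE for each gene (rows) in 6 comparisons (panels) that do not contain the induced Grh line or wild type at 100 µM. The SE was derived from the test statistic and can be smaller than counting error. Red filled points have an adjusted p under 0.05 by edgeR, open points do not, and genes with fewer than 10 counts over the groups compared are not drawn. The filled point of Qsox2 in the Zld panel rests on a gene that passed the low-count filter only through the induced Grh line. The largest changes are those of goe and Vdup1 in the uninduced Grh line and of SP1173 and CBP in the Twi line.

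SP1173 and CBP were the members with a higher level in the induced Twi line than in the induced Grh line. The Twi line has no uninduced libraries, so an effect of Twi apart from a difference between lines was not tested. Twi is the bHLH factor that specifies mesoderm. SP1173 had 181.6 and 160.4 CPM in the Twi line, 69.1 and 77.4 CPM in the induced Grh line and 1.54 and 3.71 CPM in wild type at 40 µM. In the 12 libraries of the wild type and Zld lines it ran from 0.478 to 5.12 CPM with a median of 2.60. SP1173 rose by 6.07 ± 0.25 on the log2 scale in the Twi line over wild type at 40 µM (adjusted p = 7.31e-10). In the uninduced Grh line it had 2.30 and 1.28 CPM, which overlapped with the 2.38 and 1.74 CPM of untreated wild type (log2 change -0.14 ± 0.44, adjusted p = 0.894).

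CBP had 95.6 and 82.3 CPM in the Twi line and 3.71 and 6.38 CPM in wild type at 40 µM. There its log2 rise was 4.15 ± 0.20 (adjusted p = 1.46e-09). The third member called in the Twi line was CG10359, which had 22.3 and 17.7 CPM against 6.58 and 11.6 CPM and rose by 1.14 ± 0.21 (adjusted p = 0.00164). With only the 4 libraries of these groups fitted, the call of CG10359 ended (log2 change 1.13, adjusted p = 0.0968), and those of SP1173 and CBP held. None of the members was called lower in the Twi line, where 10.5% of all tested genes were called higher and 9.93% lower. Qsox2, ldd and C901, which passed the low-count filter only through the induced Grh libraries, had 4 against 3, 4 against 6 and 0 against 0 counts. In the fit without those libraries the same 3 members were called. The members not called stayed low in the Twi line, from no counts of C901 to 2.23 and 3.49 CPM of Vdup1. Without replicate 2 of wild type at 40 µM Vdup1 was called higher in the Twi line (log2 change 1.67, adjusted p = 0.00184), while with both its change was 0.19 (adjusted p = 0.851). As a share of the induced Grh level, the Twi line held 233% for SP1173, 149.5% for CBP and 7.10% for CG10359. Replicates at 40 µM were the least alike of any group: chi-square divided by its degrees of freedom was 37.7 in wild type and 18.7 in the Twi line, against 2.01 to 14.6 in the other groups.

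CBP differed from the other members in wild type cells as well. It had 1.89 and 1.80 CPM in untreated cells, 3.71 and 6.38 CPM at 40 µM, 27.0 and 26.1 CPM at 100 µM and 1.09 and 0.722 CPM at 1000 µM CuSO4. No 2 of these 4 groups overlapped, and the level was highest at 100 µM and lowest at 1000 µM. Whether these groups were handled together is not given, so copper dose cannot be told apart from batch here. At 40 µM CBP rose by 1.45 ± 0.31 on the log2 scale over untreated cells (edgeR, adjusted p = 0.00130). At 1000 µM the log2 change was -1.03 ± 0.46 and was not called by edgeR (adjusted p = 0.126), while DESeq2 called it (adjusted p = 0.0449), as did edgeR on the 4 libraries alone (adjusted p = 0.0156). The 100 µM libraries took part in choosing the members, so their value of 3.83 ± 0.26 above untreated cells is given without a test. Against the same libraries the induced Grh line, at 59.1 and 59.9 CPM, differed by 1.27 ± 0.18 on the log2 scale, the smallest difference among the 10, while against the uninduced Grh line, at 1.43 and 1.71 CPM, it differed by 5.20 ± 0.25.

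**Figure D3:**
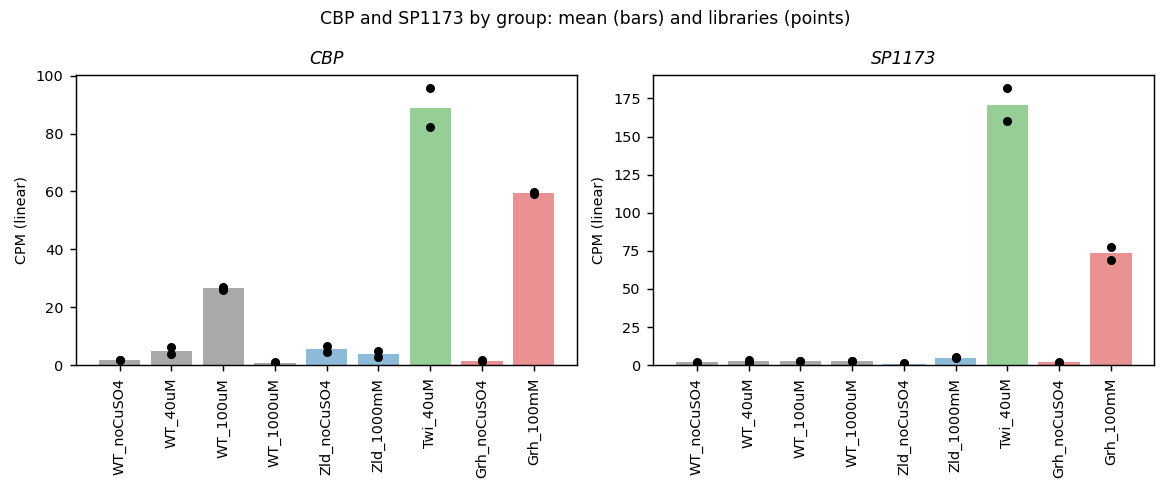
CPM on a linear axis from 0 for CBP (left) and SP1173 (right) in the 9 groups, with bars for the mean of 2 libraries and points for the libraries. CBP stands at 26.5 CPM on average in wild type at 100 µM and at or below 6.38 CPM in every other wild type library, whereas SP1173 stays at or below 3.71 CPM in all wild type libraries.

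Across the wild type groups, which differ in copper dose, the members differed among themselves. Each copper dose was deposited beside a different line, and whether the doses were handled together is not given in the sources used here. A difference by dose therefore cannot be told apart from one between batches. At 40 µM, 3 of 10 were higher and none lower, where 23.9% of all tested genes were called higher and 26% lower. The 10 include Qsox2, ldd and C901, which passed the low-count filter only through the induced Grh libraries. In the fit without those libraries 7 members were tested, and the same 3 were called higher. With so few members, no difference from the background share is read. The 3 were CBP, CG10359 and Vdup1. CG10359 rose by 1.84 ± 0.30 on the log2 scale (adjusted p = 0.000190). Vdup1 rose by 2.11 ± 0.76 (adjusted p = 0.0379), but its replicates at 40 µM held 0.875 and 4.55 CPM, and the change was 0.63 without the second (adjusted p = 0.347). The call of Vdup1 also ended without replicate 1 or 2 of untreated wild type (adjusted p = 0.154 and 0.116) and with only these 4 libraries fitted (adjusted p = 0.0905). At 100 µM, given without a test, both libraries lay above both untreated ones for CBP (a ratio of 14.3), Vdup1 (3.15), CG10359 (2.55) and SP1173 (1.26). They lay below for Sp212 (4 against 16 counts, a ratio of 0.239) and CG31769 (3 against 10 counts, a ratio of 0.287 with a 95% interval of 0.0508 to 1.12). At 1000 µM edgeR called 0 of 10 members, where 22.3% of tested genes were called. Qsox2, ldd and C901 had 1 against 1, 5 against 3 and 1 against 0 counts there, so a call of these was hardly possible. In the fit without the induced Grh libraries, none of the 7 members tested was called. Of the 10, 1 had an unadjusted p under 0.05, and DESeq2 called 1, CBP. Without replicate 1 of untreated wild type goe was called higher at 1000 µM (adjusted p = 0.0388) and at 40 µM (adjusted p = 0.0492), against a single library with no counts of it. Without replicate 1 at 40 µM SP1173 was called higher there (0.87, adjusted p = 0.0250), and without replicate 2 Sp212 was called lower (-2.50, adjusted p = 0.0275).

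Zld is the activator of the early embryonic genome. In the induced Zld line 2 of the 10 members, CBP and Qsox2, were called higher than in wild type at 1000 µM and none lower, where 15.6% of tested genes were called higher and 15.3% lower. This share of members, too, is near the background. CBP had 4.88 and 2.79 CPM in the induced Zld line and 1.09 and 0.722 CPM in wild type at 1000 µM, a log2 rise of 2.18 ± 0.40 (adjusted p = 0.000985). The uninduced Zld line had 4.59 and 6.47 CPM of CBP, a range that overlapped with the induced one. Against untreated wild type, CBP was called higher there too. The change with copper in the Zld line minus that in wild type was 0.47 ± 0.55 on the log2 scale for CBP (adjusted p = 0.696). Qsox2 had 7 and 5 counts in the induced Zld line against 0 and 1 in wild type, a ratio of 13.3 (95% exact binomial interval 1.97 to 570, counting error only). No difference is read from its call, since Qsox2 passed the filter only through the induced Grh libraries, and the call ended without any 1 of the 4 libraries compared (adjusted p = 0.0527 to 0.144). Without the induced Grh libraries CBP was the 1 member called. SP1173 had 5.12 and 4.41 CPM in the induced Zld line and 2.73 and 2.83 CPM in wild type, which did not overlap; its log2 change of 0.87 ± 0.36 was not called (adjusted p = 0.0803), but it was with only these 4 libraries fitted (adjusted p = 0.00379). Whether the members' response to copper differed between the Zld line and wild type was tested as an interaction. edgeR and DESeq2 called 0 of 10 members, with 1 unadjusted p under 0.05 in edgeR, where 8.02% of tested genes were called. The 10 again include Qsox2, ldd and C901. In the fit without the induced Grh libraries, none of the 7 members tested was called.

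Across the 18 libraries the members fell along a range of likeness, given as Pearson's r of log2 CPM without a test. Libraries of a group share their condition, and r is raised by any pair of genes that are high in the induced Grh line. C901 and CG31769 were the most alike, at 0.973, and goe and CBP the least, at 0.249. SP1173 and CBP had 0.786 with each other and at most 0.736 with any other member. Outside the 10, the gene most like goe was grh itself (0.975), followed by the chitinase gene Cht2 (0.959). For Vdup1 these were CG8539 and CG44325 (0.948 and 0.939), and for CG10359 Msr-110 and CRAT (0.976 and 0.960). Hayan, which encodes a serine protease that activates melanization, led for CG31769 (0.977) and C901 (0.994) and came second for Sp212 (0.958) after CG17121 (0.965). Second places were held by psh, a protease upstream of Toll, for CG31769 (0.970) and by the cuticle protein gene Lcp4 for C901 (0.988). Qsox2 was most like Spn47C and Cpr64Ac (both 0.981), and ldd like St2 and btsz (0.968 and 0.963). SP1173 was most like Best2 and CG17032 (0.971 and 0.954). CBP was most like kirre, an adhesion receptor of muscle founder cells (0.929), and Fit1 (0.922).

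**Figure D4:**
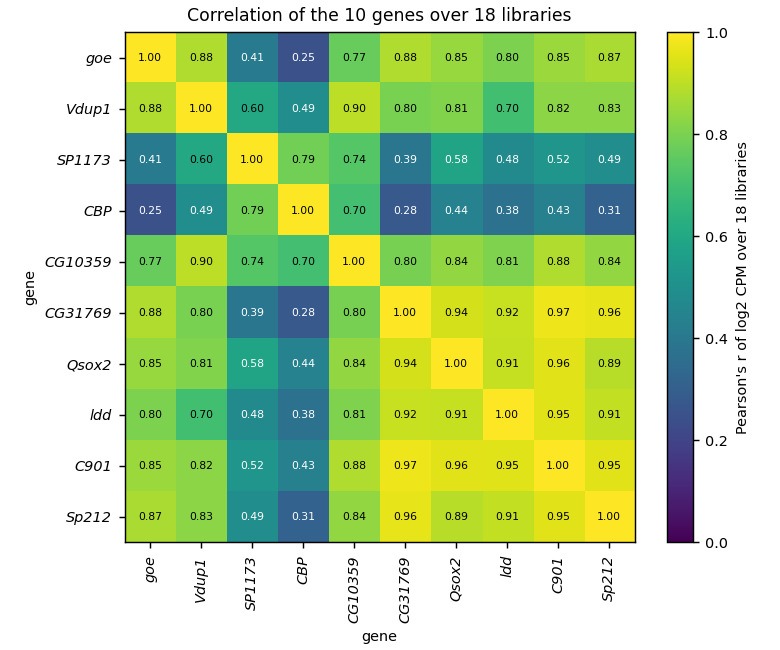
Pearson's r of log2 CPM over 18 libraries between each pair of the 10 genes, as colour from 0 to 1 with the value printed in each cell. SP1173 and CBP form a pair at 0.79 and have lower values with goe, CG31769 and Sp212 than the other members do.

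The nearest protein-coding genes on each side of the members were 18 genes. Of these, 9 passed the filter on low counts. Between induced Grh and 100 µM wild type cells, 3 of the 9 rose and 1 fell, where 21.4% of tested genes were called higher and 24.6% lower. CG46301, whose span contains CG31769 on the opposite strand, rose from 3.18 ± 0.103 to 21.1 ± 1.83 CPM (log2 change 2.82 ± 0.19, adjusted p = 3.34e-09). In the uninduced Grh line its log2 change was -0.07 (adjusted p = 0.882). Myo10A, an unconventional myosin gene that overlaps the end of C901, rose by 1.02 ± 0.18 (adjusted p = 0.000144). CG13875, next to Vdup1, rose by 1.62 ± 0.49 from 14 to 37 counts (adjusted p = 0.0114), and the integrin gene if, next to goe, fell by 1.00 on the log2 scale (SE 0.30, adjusted p = 0.0110). The calls of CG13875 and if each ended without some single libraries: that of CG13875 without any but replicate 1 of the induced Grh line, and that of if without replicate 1 of either group. CG1677, which overlaps CBP, had 167.8 ± 2.90 and 191.0 ± 6.56 CPM and a log2 change of -0.09 (adjusted p = 0.376). Qsox3, the related gene 155 bases from Qsox2, had 1 count in the induced Grh line and none in wild type at 100 µM. The 4 Twdl genes within the span of goe had 1 to 6 counts each in the induced line, and CG9631, 942 bases from Sp212, had 14 counts against 2.

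Genes of the members' families were read from lists in the same comparison, with the members left out. Of all tested genes 21.4% were called higher there and 24.6% lower, and no list was tested as a set against these shares. The first list holds extracellular serine proteases, most of them of the Toll and melanization cascades. Of its 12 genes 8 were tested, and 6 rose and none fell, with a median log2 change of 3.57 (3.49 with genes absent from wild type at their bound) against -0.02 over all tested genes. The protease gene spirit had 377 counts against 1, a ratio of 404 (95% interval 72.1 to 16010, adjusted p = 1.43e-08). In wild type at 100 µM psh and Hayan had no counts. psh was at least 42.9-fold (adjusted p = 1.14e-05) and Hayan at least 15.4-fold higher (adjusted p = 0.000247). The call of Hayan ended with DESeq2 (adjusted p = 0.0597). modSP, the modular protease at the head of the Toll cascade, rose by 4.11 ± 0.35 on the log2 scale from 0.924 ± 0.118 to 15.1 ± 1.96 CPM (adjusted p = 6.32e-08). SPE, at 43 against 6 counts, lost its call without replicate 1 of wild type or replicate 2 of the Grh line (adjusted p = 0.0660 and 0.0561). The same list had no gene called in the uninduced Grh line and 1 higher and 1 lower in the Twi line. Genes pass the filter in part through the group where they are high, so these counts are not over all listed genes. The lists were also chosen with earlier results of these data known, so the calls are not independent of that choice.

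Among 26 neprilysin family genes other than goe, 16 were tested, 2 rose and 2 fell (median log2 change -0.04). Nep1, a neprilysin, rose by 4.20 ± 0.45 (3.32 ± 0.412 against 0.189 ± 0.00772 CPM, adjusted p = 9.19e-07). Nep5 had a log2 change of 0.75 and Nepl21 and Nepl3 of -1.15 and -0.20, and each of these 3 calls ended without 1 or more single libraries. Of 14 arrestin family genes other than Vdup1, 8 were tested, 4 rose and none fell (median 0.13). CG2641 rose by 2.41 ± 0.11 (adjusted p = 4.50e-11) and CG14696 by 0.80 ± 0.08 (adjusted p = 2.71e-07). CG18744 had 8 counts against 0 and CG1105 a log2 change of 0.21, and the calls of both ended without single libraries. Of the disulfide relay and sulfhydryl oxidases other than Qsox2, 7 of 9 were tested, none rose and 4 fell (median -0.25). Ero1L, the oxidase of the endoplasmic reticulum, fell by 1.03 on the log2 scale (SE 0.11, 88.5 ± 3.31 against 194.1 ± 2.85 CPM, adjusted p = 1.43e-06), and CaBP1 fell by 0.62 (SE 0.08, adjusted p = 9.25e-06). Against untreated wild type the uninduced Grh line had 4 genes of this list higher and none lower (median 0.32). Wild type at 100 µM had 3 higher and none lower than untreated cells (median 0.2).

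Of 16 EF-hand calcium-binding genes other than CBP, 8 were tested, none rose and 3 fell (median -0.32). They include Cam, which encodes calmodulin and fell by 0.84 on the log2 scale (SE 0.09, adjusted p = 1.05e-06). CanB2, a calcineurin subunit gene, fell by 0.57 (SE 0.07, adjusted p = 6.27e-06), and TpnC4, a troponin C gene, had a change of -0.96 whose call ended without single libraries. Of 3 tested thioredoxin system genes edgeR called none (median 0.23). For comparison, 6 of 9 tested textbook targets of Grh rose and none fell (median 2.64). Among them Cad96Ca, a receptor kinase of wound repair, rose by 6.69 ± 0.36, and kkv, which encodes a chitin synthase, by 6.62 ± 0.55 (adjusted p = 2.29e-10 and 5.56e-08). The pigmentation gene e had a log2 change of 6.25 ± 0.29 and the adhesion gene Fas3 one of 4.29 ± 0.29 (adjusted p = 4.49e-11 and 3.13e-09). Wild type at 40 µM, without the Grh transgene, held 19.55 ± 0.823 CPM of Fas3. That level overlapped with the 17.97 ± 3.53 CPM of the induced Grh line.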

How the data were processed

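PolyA RNA of 18 libraries was measured. The authors deposited raw counts of reads per gene, without normalization, in 3 tables with identical untreated wild type columns. The deposited tables also hold a value of another kind, the gene length in bases, used for RPKM. Per the submitters' processing notes, HISAT2 2.1.0, featureCounts, Subread 2.0, DESeq2 and dm6 were used, with roles, annotation and strand setting not given in the sources used here; the authors' DESeq2 output was not used. The library kit does not keep strand. Symbols matched 17560 of 17609 gene identifiers. Deposited lengths equal the summed exon length of the Ensembl annotation (dm6 coordinates) in 99.9% of matched genes.

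Counts were fitted for all 18 libraries in 1 edgeR 4.0.16 model in R 4.3.3 (9 groups, 9 residual degrees of freedom, filterByExpr and TMM; two-sided quasi-likelihood F test with robust dispersion; Benjamini-Hochberg adjustment over 9521 genes). A call is an adjusted p under 0.05. The script was tested on simulated data. CPM uses library size alone, and values are mean ± SD over 2 libraries. RPKM is CPM per kilobase of deposited length. A log2 change (± SE) of a member was given from 10 counts over the groups compared, a minimum set after seeing the data. The SE was derived from the test, as the size of the log2 change over the square root of F. For genes with few counts in a group it can be smaller than counting error, as for goe and CG31769 in the uninduced Grh line. Folds against 0 counts use a floor of 3 counts over the group, and intervals are 95% Clopper-Pearson. Floors and intervals cover counting error only, since reads carry no molecular identifiers. Alternatives were DESeq2 1.42.0, its size factors, no filter, a replicate block, fits on the groups compared, another control and leaving out each library. A filter and fit on the 16 libraries outside the induced Grh line was added after seeing the data. The members and lists were chosen with earlier results of these data known. Named genes are the members, the factors, the 2 genes most like each member, the nearest protein-coding genes and up to 4 called genes per list with the largest change; genes overlapping a member's span were added after their values were seen. Same-numbered replicates were not taken as pairs: of 36 pairs of groups, 4 had deviations correlated above 0.1 (range -0.246 to 0.414).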

Additional observations from a re-analysis of the deposited data

How the results depend on the processing

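Of 718 recomputed log2 changes of members, list genes and neighbours, 618 kept direction and call, 70 lost the call, 13 gained one and 17 changed sign; the cause was not tested. Those that changed sign were uncalled. Fits on only the groups compared gave 2231 genes called (against 1184) for uninduced Grh against wild type, 758 (1236) for Grh against Zld uninduced, 554 (1945) for Twi and 3897 (2122) for wild type at 1000 µM, and called 1 member (0) at 1000 µM and 1 (0) in the Zld interaction. Without the count filter 5 members (2) were called for induced Zld, 2 (1) for uninduced Zld, 1 (0) at 1000 µM and 2 (0) in the interaction. DESeq2 called 1 (0) at 1000 µM. With filter and fit on the 16 libraries outside the induced Grh line, chosen after seeing the data, 3 members (5) were called for uninduced Grh against wild type and 1 (2) for induced Zld, with 7 members tested. With the mean of untreated wild type and uninduced Zld as control, SP1173 changed by 0.32 in the uninduced Grh line.

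Leaving out 1 library gave 1605 to 2272 genes called for induced Zld (1 member each time), 513 to 1816 for Grh against Zld uninduced (3 to 7 members), 560 to 654 for uninduced Grh against wild type (3 to 5 members), 562 to 1559 for uninduced Zld, 1040 to 1109 at 1000 µM (0 to 1 members) and 420 to 792 in the interaction. A group left with 1 library is assumed to vary like the others. Log2 changes then ran from -0.58 to 0.28 for SP1173 in uninduced Grh and from -1.70 to 1.09 for ldd in Grh against Zld uninduced. For induced Zld CG31769 ran from -0.62 to 0.11, and for uninduced Zld CG10359 from -0.002 to 0.74. In the Twi line Vdup1 ran from -0.67 to 1.67, Sp212 from -0.32 to 1.86 and ldd from -1.16 to 0.021. At 40 µM goe ran from -0.16 to 4.80 and SP1173 from -0.36 to 0.87. At 1000 µM Vdup1 ran from -0.30 to 0.30, CG31769 from -0.40 to 0.051 and Sp212 from -0.10 to 0.63.

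With a replicate block 4 members (5) and 1152 genes were called for uninduced Grh against wild type, Sp212 losing its call; the block changed no other member's call. Depth limits Qsox2, ldd and C901 most, with 29, 33 and 4 counts outside the induced Grh libraries.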
